A study of Mus musculus with 5 samples.

Results

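The subject here is 10 secreted proteins of the hepatic acute-phase response, chosen by name with earlier results of these data known. They are the serum amyloid A genes Saa1, Saa2, Saa3 and Saa4, the short pentraxins Crp and Apcs, the orosomucoids Orm1 and Orm2, and the scavenger proteins Hp and Hpx. All 10 were measured among 19938 genes, each by 1 probe set, so the rule of taking the brightest probe set of a gene had nothing to choose between. Expression was measured in tumours from 3 livers of male mice aged about 10 months with the genotype Hdac3FL/-; AlbCre+. The tumours were set against normal tissue from 2 control livers of the same age and sex with the genotype Hdac3FL/+; AlbCre+. AlbCre expresses Cre recombinase from the albumin promoter and so acts in hepatocytes. Control hepatocytes, whose floxed allele is also cut, keep only the wild-type copy. The other cells of the organ keep the floxed copy, beside a null allele in the null mice and a wild-type allele in the controls. The groups therefore also differ in Hdac3 copies outside hepatocytes. RNA of each sample was hybridised to 1 Affymetrix gene array. Values are deposited log2 expression values, on which 1 unit is a doubling. Every null sample was a tumour and every control was normal tissue, so genotype and tumour cannot be told apart, and in whole tissue fewer cells of a type and less RNA per cell cannot be told apart either.

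The acute-phase response is the change in plasma proteins that the liver makes during infection or injury. Interleukin-1 and tumour necrosis factor, acting through NF-kB, and cytokines of the interleukin-6 type, acting through STAT3, raise the transcription of these genes in hepatocytes together with C/EBP factors. Saa1 and Saa2 encode inducible apolipoproteins of high-density lipoprotein, Saa3 is made by macrophages, adipocytes and other cells as well as by liver, and Saa4 is the constitutive member of the family. C-reactive protein (Crp) and serum amyloid P component (Apcs) are pentamers that bind phospholipids, chromatin and microbes; Crp is the strongly inducible pentraxin in humans, and Apcs in mice. The orosomucoids are alpha-1-acid glycoproteins that carry lipophilic molecules. Haptoglobin (Hp) binds free haemoglobin and hemopexin (Hpx) binds free haem.

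The sequences just upstream of the genes are shown because of where the genes lie. Among the measured genes the Saa genes follow each other on chromosome 7, as Crp and Apcs do on chromosome 1. Yet the values of neighbours differed in size or direction of change. Promoters of 8 of the 10 genes were found in the RefSeq table for GRCm38.p6, each a window of 250 bases before and 50 after the start of transcription. Capitals mark matches, on either strand, to 6 motifs: the NF-kB motif (GGG and TTTCC with any 2 bases between), the C/EBP motif TTGCNNAA, the STAT motif TTCNNNGAA, the type II interleukin-6 response element CTGGGA, the HNF1 motif GTTAAT and the TATA box TATAAA.
Saa1, chr7:46742931-46743230, minus strand: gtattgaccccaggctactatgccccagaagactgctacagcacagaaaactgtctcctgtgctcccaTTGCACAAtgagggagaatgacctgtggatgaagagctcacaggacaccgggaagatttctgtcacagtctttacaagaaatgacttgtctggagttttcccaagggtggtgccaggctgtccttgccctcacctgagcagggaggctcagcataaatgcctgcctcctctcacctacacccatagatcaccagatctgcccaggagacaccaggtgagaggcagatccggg
Saa2, chr7:46751583-46751882, plus strand: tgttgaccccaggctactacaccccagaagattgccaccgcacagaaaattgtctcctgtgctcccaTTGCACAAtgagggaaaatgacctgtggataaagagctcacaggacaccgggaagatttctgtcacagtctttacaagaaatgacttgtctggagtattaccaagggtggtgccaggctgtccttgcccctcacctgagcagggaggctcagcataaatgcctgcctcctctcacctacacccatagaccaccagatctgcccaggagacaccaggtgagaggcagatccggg
Saa3, chr7:46715627-46715926, minus strand: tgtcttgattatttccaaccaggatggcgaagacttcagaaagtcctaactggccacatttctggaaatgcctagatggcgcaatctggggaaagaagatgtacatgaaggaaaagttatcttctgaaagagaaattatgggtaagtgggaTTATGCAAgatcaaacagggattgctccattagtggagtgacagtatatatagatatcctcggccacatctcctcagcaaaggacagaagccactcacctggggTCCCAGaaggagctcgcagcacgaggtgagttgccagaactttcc
Saa4, chr7:46732554-46732853, minus strand: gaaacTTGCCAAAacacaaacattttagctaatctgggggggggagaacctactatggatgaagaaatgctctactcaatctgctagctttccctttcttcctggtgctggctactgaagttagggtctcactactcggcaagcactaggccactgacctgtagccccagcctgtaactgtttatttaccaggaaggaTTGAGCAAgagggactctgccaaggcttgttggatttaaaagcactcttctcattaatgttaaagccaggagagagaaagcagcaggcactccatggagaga
Crp, chr1:172697806-172698105, plus strand: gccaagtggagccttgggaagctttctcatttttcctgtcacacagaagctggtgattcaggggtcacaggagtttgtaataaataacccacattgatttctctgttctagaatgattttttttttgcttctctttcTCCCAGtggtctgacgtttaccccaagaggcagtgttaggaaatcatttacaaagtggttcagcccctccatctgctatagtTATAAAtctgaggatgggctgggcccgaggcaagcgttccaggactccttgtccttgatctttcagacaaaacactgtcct
Apcs, chr1:172895005-172895304, minus strand: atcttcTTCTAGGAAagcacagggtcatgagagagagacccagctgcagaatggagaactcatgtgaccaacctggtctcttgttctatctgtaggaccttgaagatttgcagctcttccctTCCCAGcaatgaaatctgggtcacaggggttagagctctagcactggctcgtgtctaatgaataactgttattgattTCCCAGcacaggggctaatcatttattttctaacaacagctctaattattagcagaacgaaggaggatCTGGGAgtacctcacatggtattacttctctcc

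The promoters of Saa1 and Saa2 had 287 identical bases over an alignment of 301 columns, an identity of 95.3%. The next most alike pair, Saa1 and Saa3, reached 50.1%. The C/EBP motif was found in 6 of the 8 windows, all 4 Saa genes, Orm2 and Hpx, against 10.8% of 32851 promoters of the same length. The match is TTGCACAA in both Saa1 and Saa2, at -182 and -183 from the start, and in Orm2 it is TTGCGCAA at -120, which reads the same on both strands. The windows of Crp and Apcs held no C/EBP match of these letters. The interleukin-6 element stood in Saa3, Crp and Apcs, 3 of 8 windows, with 31.8% of all promoters holding it, and Apcs alone had a STAT match, TTCTAGGAA at -244 (8.3% of all promoters). No window held the NF-kB motif (1.63% of all promoters) or the HNF1 motif (7.1%), and the TATA box stood in Crp and Orm2 (13.6%). These matches describe the letters only and say nothing of binding.

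The 10 genes did not move as a group. In a limma fit over all 19938 genes, 4 of them passed a Benjamini-Hochberg adjusted p of 0.05, against 10.6% of all genes. Apcs rose, 1 of 10 against 5.6% of all genes risen, and Saa3, Saa4 and Crp fell, 3 of 10 against 4.96% of all genes fallen. For 7 of the 10, and for 44.2% of all genes, the groups were fully apart. Apcs, Hp and Hpx were higher in every tumour, 3 of 10 against 21.1% of all genes, and Saa3, Saa4, Crp and Orm1 were lower in every tumour, 4 of 10 against 23.1% of all genes. The median log2 change over the 10 was -0.65, beside -0.02 over all genes, and single genes ranged from a 32.2-fold lower mean for Saa4 to a 3.5-fold higher mean for Apcs. All 4 calls were lost when either control was left out (adjusted p from 0.0576 to 0.26), where 1 control stands for the group and is assumed to vary as the tumours do.

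**Figure D1:**
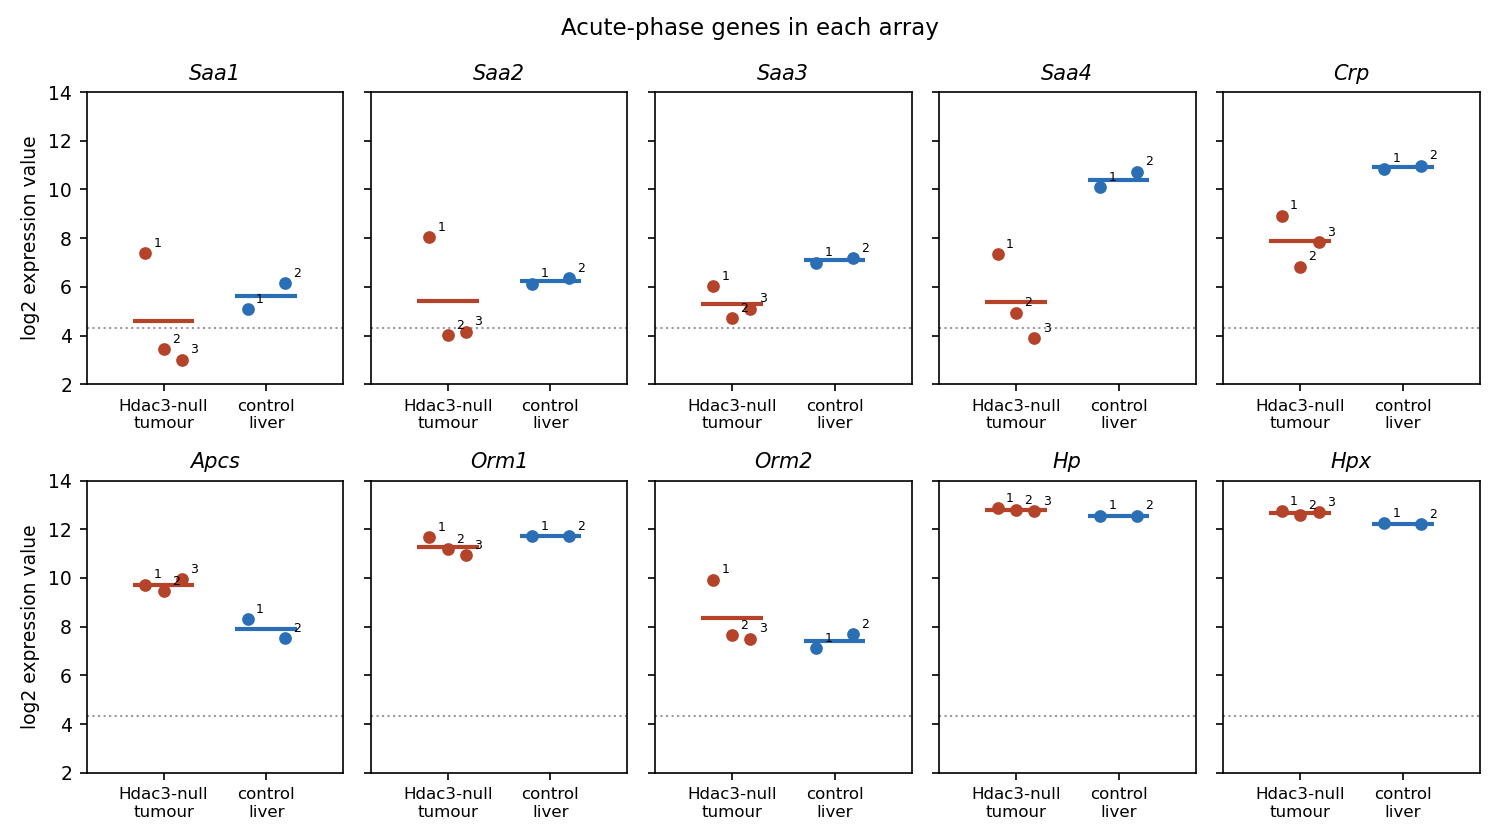
Log2 expression value of each of the 10 acute-phase genes (vertical axis) in the Hdac3-null tumours (red) and the control livers (blue); points are single arrays with their replicate number, horizontal bars are group means, and the dotted line is the mean lower quartile of the 5 arrays. Saa4 and Crp lie lower in all 3 tumours than in both controls, Apcs lies higher, and tumour 1 stands above the other tumours for Saa1, Saa2 and Orm2.

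Across the series, 2106 genes passed the same test, 1117 risen and 989 fallen; 53% of the calls were rises, and 42.7% after the array medians were made equal, a setting under which the same 4 members were called. Array medians lay between 5.66 and 5.77. Hdac3 itself was at 6.78, 6.57 and 6.65 in the tumours, against 8.21 and 8.37 in the controls, which fits the labels, though the place of its probes relative to the deleted part was not analysed here. Of 8 hepatocyte markers none lay under the lower quartile of an array throughout, and 2 fell, Ttr and Fah. A summed level is the log2 of the summed unlogged values of a list, so its brightest genes weigh most. For hepatocyte markers it was 14.73 to 15.05 log2 units in tumours, against 15.28 to 15.36 in controls. Of 12 macrophage markers 6 rose, with a summed level of 11.62 to 12.62 in tumours and 10.13 to 10.59 in controls. None of the neutrophil (8), adipocyte (5), endothelial (6), stellate and fibroblast (7), lymphocyte (7), cholangiocyte (6) or erythroid (3) markers measured passed the test. Alas2 of the erythroid list (log2 change -3.20, limma adjusted p = 0.0512) and Pecam1 of the endothelial list (1.27, limma adjusted p = 0.0522) came close. Both were called when the 40% of genes with the lowest means were dropped, and under some other settings. Other markers of these lists were called with 1 tumour left out. Without tumour 3, Pdgfrb, Cd3g, Cd8a, Krt19, Nkg7, Cdh5 and Krt7 were called as risen. Without tumour 1, Col1a1 was called as risen and Stab2 as fallen. Klf1 of the erythroid list was called as fallen with either other normalisation and with array weights.

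Saa4, the constitutive serum amyloid A (probe set 10563602), fell the most of the 10. Its log2 values were 7.35, 4.94 and 3.90 in tumours 1, 2 and 3, against 10.08 and 10.73 in the controls. Every tumour lay below both controls, and the tumours themselves spread over 3.45 units, a range larger than in 99.7% of genes. The mean was 5.40 ± 1.77 in tumours (SD, n = 3) and 10.40 ± 0.46 in controls (SD, n = 2), a log2 change of -5.01 (95% confidence interval -7.35 to -2.66, limma adjusted p = 0.0289). Set against the control mean, the level was 8.31-fold lower in tumour 1, 44-fold lower in tumour 2 and 91.1-fold lower in tumour 3. In tumour 3 the value lay under the lower quartile of that array, where signal was not shown to be above background; with that value raised to the quartile the change was -4.86. The call was lost without tumour 2 (limma adjusted p = 0.0826).

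Saa3 (probe set 10563597) fell as well, by less. It stood at 6.04, 4.72 and 5.10 in the tumours, against 6.998 and 7.19 in the control livers. The groups did not overlap, and tumour 1 was again the nearest to the controls. The log2 change was -1.81 (95% confidence interval -2.74 to -0.88, limma adjusted p = 0.0376), a 3.5-fold lower mean, and without tumour 2 it was -1.52 (adjusted p = 0.0702). Macrophages are a known source of Saa3. Of their 12 markers 6 rose in the same arrays, Cd68 by 3.02, Gpnmb by 2.78, Itgax by 2.56, Adgre1 by 2.27, Lyz2 by 2.26 and Csf1r by 2.10 log2 units. The other 6 did not pass, with changes of -0.80 for Clec4f, -0.20 for Vsig4, 0.23 for Marco, 0.36 for Timd4 and Cd5l and 0.44 for Trem2, and the macrophage receptor gene Cd163 fell by 2.20. The adipocyte markers, of another known source, gave a summed level of 6.95 to 7.04 in tumours and 6.93 to 7.13 in controls, with Adipoq and Lep under the lower quartile of every array. The part of either cell type in the Saa3 result was not tested.

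Saa1 and Saa2, the inducible pair, split the tumours. Saa1 (probe set 10563611) was at 7.38 in tumour 1, 3.43 in tumour 2 and 3.01 in tumour 3, against 5.10 and 6.15 in the controls. Saa2 (probe set 10553274) was at 8.03, 4.02 and 4.17 in tumours 1, 2 and 3, against 6.13 and 6.35 in the controls. For both genes tumour 1 lay above both controls and tumours 2 and 3 lay below them. In tumour 1 Saa1 was 3.38-fold and Saa2 3.45-fold above the control mean, whereas in tumour 2 they were 4.58-fold and 4.66-fold below it and in tumour 3 they were 6.11-fold and 4.22-fold below it. The values of tumours 2 and 3 lay under the lower quartile of their arrays for both genes, so the sizes of these falls are uncertain.

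As group differences neither gene passed: the log2 change was -1.02 for Saa1 (95% confidence interval -4.22 to 2.19, limma adjusted p = 0.711) and -0.84 for Saa2 (95% confidence interval -3.79 to 2.12, limma adjusted p = 0.745). Those intervals include a 4-fold change in either direction. With values under the lower quartile raised to it, the changes were -0.29 for Saa1 and -0.69 for Saa2. Without tumour 1 the changes were -2.40 (limma adjusted p = 0.023) and -2.15 (limma adjusted p = 0.00378), so that 1 array decided both. The range among the tumours, 4.37 log2 units for Saa1 and 4.01 for Saa2, was larger than in 99.9% and 99.8% of genes, and no test was made of 1 tumour against 2. Saa1 and Saa2 have near-identical transcripts, which their probes may not tell apart, and the names of the pair were exchanged in older nomenclature.

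The pentraxins, neighbours among the measured genes of chromosome 1, moved in opposite directions. Crp (probe set 10351852) was at 8.93, 6.83 and 7.84 in the tumours, against 10.86 and 10.97 in the controls. All tumours lay below both controls, by 3.96-fold in tumour 1, 16.9-fold in tumour 2 and 8.4-fold in tumour 3 relative to the control mean. The log2 change was -3.05 (95% confidence interval -4.43 to -1.66, limma adjusted p = 0.0263), larger in size than that of 99.2% of genes. Apcs (probe set 10360328) was at 9.73, 9.46 and 9.96 in the tumours, against 8.30 and 7.52 in the controls. Here every tumour lay above both controls, and the tumours differed among themselves by no more than 0.51, less than the 0.79 between the controls. Apcs rose by 1.81 log2 units, a 3.5-fold higher mean (95% confidence interval 1.14 to 2.47, limma adjusted p = 0.0148).

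The orosomucoids showed no common shift. Orm1 (probe set 10505438) was at 11.67, 11.17 and 10.94 in the tumours, against 11.71 and 11.72 in the controls. It was lower in every tumour, by 1.03-fold to 1.71-fold, and the log2 change of -0.45 did not pass (95% confidence interval -1.01 to 0.10, limma adjusted p = 0.286). Orm2 (probe set 10505451) was at 9.93, 7.66 and 7.51 in tumours 1, 2 and 3, against 7.11 and 7.69 in the controls. Tumours 2 and 3 lay among the controls and tumour 1 stood 5.78-fold above their mean, giving a log2 change of 0.97 that did not pass (95% confidence interval -0.85 to 2.78, limma adjusted p = 0.501) and that was 0.18 without tumour 1. Orm3, which lies between them on chromosome 4 and was looked at as part of the wider acute-phase list, was at 8.78, 9.30 and 5.75 in the tumours, against 7.50 and 7.27 in the controls; it did not pass (0.57), but did without tumour 3 (1.66, limma adjusted p = 0.00663). Tumour 2 was the highest for Orm3, whereas tumour 1 was the highest for Orm1 and Orm2; as close relatives the 3 genes may share probe signal.

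The values of haptoglobin and hemopexin lay within a narrow band. Hp (probe set 10581605) was at 12.87, 12.80 and 12.73 in the tumours, against 12.56 in each control. Hpx (probe set 10566477) was at 12.73, 12.57 and 12.69 in the tumours, against 12.26 and 12.20 in the controls. Both genes were higher in every tumour, Hp by 0.24 log2 units (95% confidence interval -0.05 to 0.53, limma adjusted p = 0.285) and Hpx by 0.43 (95% confidence interval 0.13 to 0.74, limma adjusted p = 0.0829), and neither passed. In fold terms the means were 1.18 and 1.35 times the control means. The highest values on the 5 arrays were 13.70 to 13.98, and differences between very bright probe sets can come out too small. Whether this held for Hp and Hpx was not tested.

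**Figure D2:**
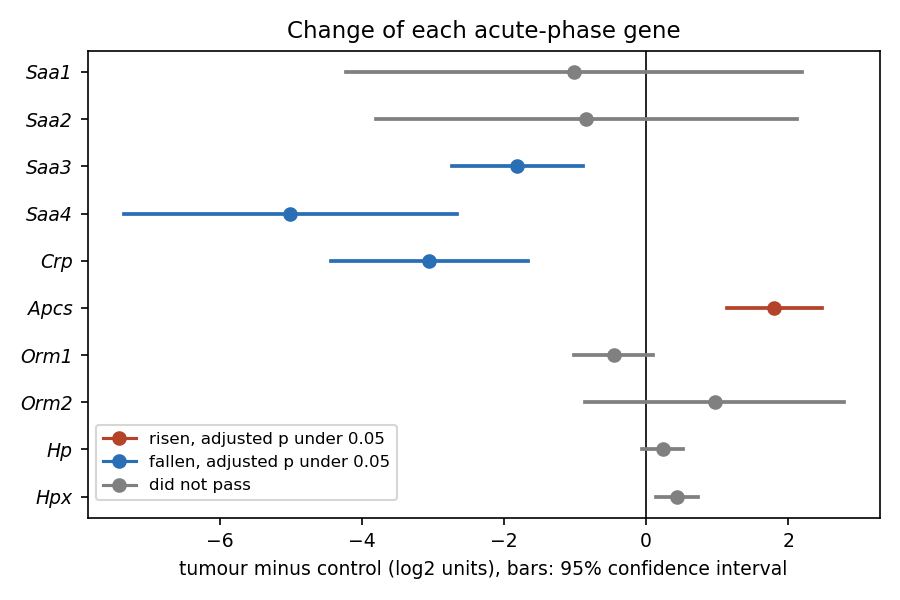
Tumour minus control difference in log2 units (horizontal axis) for each of the 10 genes, as points with 95% confidence intervals from the limma fit (3 tumours and 2 controls); colour gives the call. Saa3, Saa4 and Crp lie below zero and Apcs above it with intervals that leave out zero, as does that of Hpx (0.13 to 0.74), which was not called; the intervals of Saa1 and Saa2 span more than 5 log2 units.

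Relatives were compared within each array, which leaves out any effect shared by a whole array. The difference between 2 genes was taken in every array and then compared between groups, for 9 pairs. Crp minus Apcs was -0.80, -2.62 and -2.12 in the tumours, against 2.55 and 3.46 in the controls, a shift of -4.85 log2 units. Saa1 minus Saa4 shifted by 3.99, Saa2 minus Saa4 by 4.17 and Saa3 minus Saa4 by 3.20. These 3 shifts share the Saa4 values and are no separate evidence of its fall. Their sizes are uncertain, as Saa1 and Saa2 in tumours 2 and 3 and Saa4 in tumour 3 lay under the lower quartile. None of the tumour values of these 4 pairs overlapped the controls; each had p = 0.1 in an exact two-sided permutation test, the smallest that 3 arrays against 2 can give, and 0.225 after adjustment over the 9 pairs. Orm1 minus Orm2 shifted by -1.42 and Hp minus Hpx by -0.20, also without overlap (exact permutation p = 0.2 for each, adjusted 0.3). Saa1 minus Saa2 differed little, at -0.65, -0.59 and -1.15 in tumours and -1.04 and -0.20 in controls (shift -0.18, exact permutation p = 0.7, adjusted 0.787). The pairs of Saa3 with Saa1 and with Saa2 overlapped between the groups (exact permutation p = 0.9 and 0.7).

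Tumour 1 usually gave the highest value among the tumours. In 9 of the 10 genes tumour 1 was the highest of the 3, while over all genes it was the highest in 27.4%. The exception was Apcs, highest in tumour 3. The other two had no common order: tumour 2 lay above tumour 3 for Saa1, Saa4, Orm1, Orm2 and Hp, and below it for the rest. The range among tumours exceeded 2 log2 units for 5 of the 10, Saa1, Saa2, Saa4, Crp and Orm2, and for 1.59% of all genes. Markers of some other cells were also highest there, and those of others were not. Tumour 1 was the highest tumour for 6 of 6 endothelial markers, 7 of 7 stellate and fibroblast markers and 7 of 12 macrophage markers, among them the resident Kupffer cell markers Clec4f (9.28, 6.37 and 5.03 in tumours 1, 2 and 3, against 7.51 and 7.87 in controls) and Vsig4 (9.84, 7.34 and 4.55, against 7.07 and 7.83). It was the highest for 6 of 8 neutrophil, 3 of 3 erythroid and 4 of 8 hepatocyte markers, but for only 1 of 7 lymphocyte, 2 of 6 cholangiocyte and 1 of 5 adipocyte markers. The summed lymphocyte level was 8.18 in tumours 1 and 2 and 9.83 in tumour 3, and the summed cholangiocyte level 8.35, 8.64 and 8.86 in tumours 1, 2 and 3. The summed endothelial level was 11.34, 10.40 and 9.42 in tumours 1, 2 and 3, against 10.30 to 10.35 in controls, and the summed stellate and fibroblast level 11.64, 10.57 and 9.25, against 10.85 to 10.89. The summed hepatocyte level differed less, at 15.05, 15.00 and 14.73 in the tumours. This sum gives bright genes such as Alb the most weight, and differences between very bright probe sets can come out too small. The part of these cells in the order of the acute-phase genes was not tested.

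Other genes with like patterns were ranked by Euclidean distance over the 5 arrays, each gene taken relative to its control mean. Nearest to Saa1 came Clec4f (distance 1.02 log2 units), then the coagulation factor gene F8 (1.70) and Stab2, a scavenger receptor of sinusoidal endothelium (1.78). F8 stood at 8.49, 6.63 and 5.35 in the tumours, against 8.03 and 7.99 in controls, and Stab2 at 9.07, 7.29 and 6.49, against 8.61 and 8.69. Like Saa1, each was above both controls in tumour 1 and below them in tumours 2 and 3. Nearest to Saa4 came Lect2 (0.86), a hepatocyte-secreted chemotactic protein, Ugt3a2 (0.92), a glycosyltransferase, and Nr1i3 (1.05), which encodes the nuclear receptor CAR. Lect2 was at 6.47, 3.84 and 3.71 in tumours, against 9.43 and 9.53 in controls, and Nr1i3 at 8.16, 5.45 and 5.04, against 10.70 and 10.76. For Saa3 the nearest genes were Sema4g (0.30), Khdrbs3 (0.36) and the arginine transporter gene Slc7a2 (0.40), and for Crp they were Car8 (0.53), the retinol dehydrogenase gene Rdh16f2 (0.56) and Lhpp (0.57). With 5 arrays in 2 groups this likeness is a description, largely of the group difference that the genes share.

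Genes next to the clusters were read for comparison. The 4 Saa genes follow each other in the order Saa3, Saa4, Saa1 and Saa2 among the measured genes. Of the 8 measured genes around them, 4 on each side, none passed the test, and their log2 changes lay between -0.24 and 0.18. Saal1, beside Saa3, was at 6.07, 6.31 and 6.88 in the tumours, against 6.44 and 6.33 in the controls, and Hps5, beside Saa2, was at 6.25, 6.26 and 6.39, against 6.54 and 6.55. Around Crp and Apcs none of 8 passed either. The largest change there was that of Slamf8, a receptor of myeloid cells, at 5.16, 6.38 and 7.47 in the tumours, against 4.79 and 4.82 in the controls (log2 change 1.53, limma adjusted p = 0.195). Around the orosomucoids 1 of 8 passed, the collagen gene Col27a1, which fell by 0.53 (limma adjusted p = 0.0474). These neighbours were looked at after the members' values were known.

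**Figure D3:**
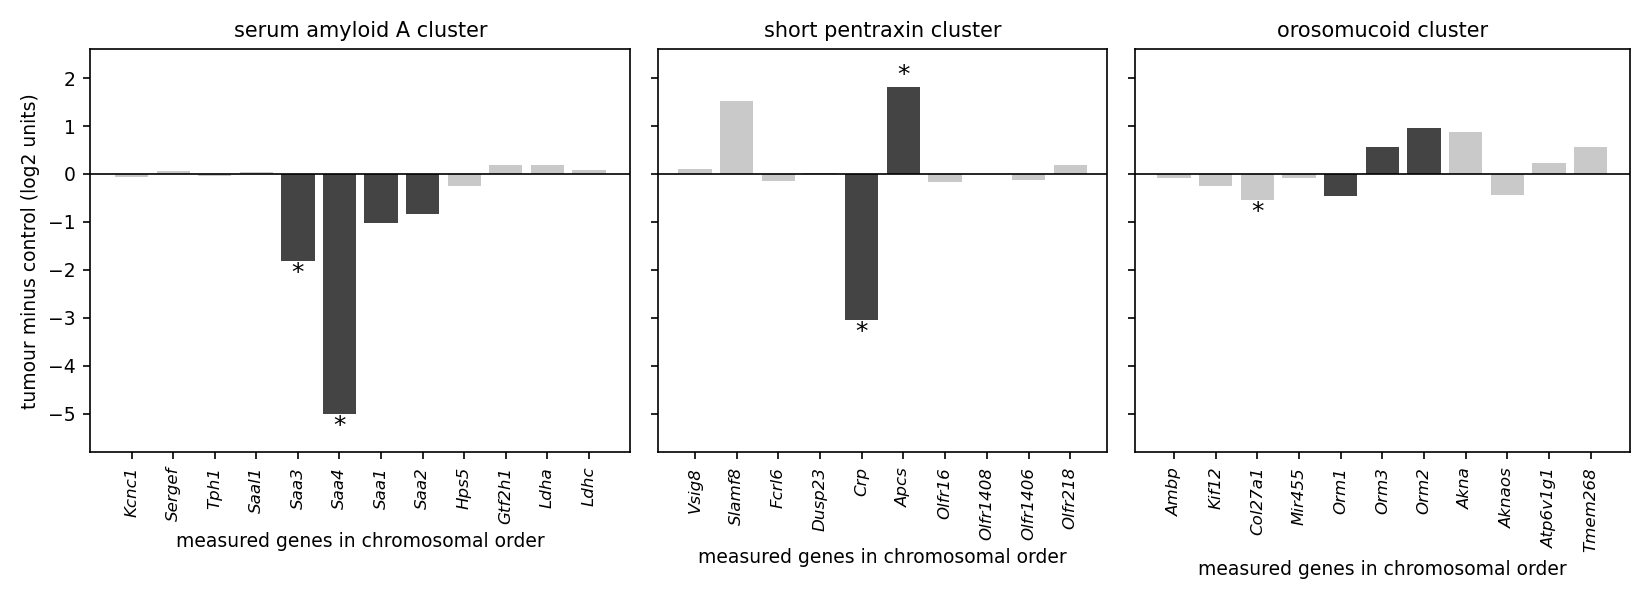
Tumour minus control difference in log2 units (vertical axis) for the genes of the serum amyloid A, short pentraxin and orosomucoid clusters (dark bars, Orm3 included) and for 4 measured genes on either side (light bars), in chromosomal order; asterisks mark a limma adjusted p under 0.05. The 4 Saa bars and Crp point down and Apcs up, while neighbours of the Saa cluster stay between -0.24 and 0.18.

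The signals that drive the response were then examined in lists of known genes, 112 measured in all. Of these 25 rose and 10 fell, 31.2% passed, beside 10.6% of all genes, and their median change was 0.12. The lists were drawn up with earlier results of these data known, so this share is no test of enrichment. Of 10 cytokines 1 rose, Il1b, the gene of interleukin-1 beta (6.19, 6.25 and 6.92 in tumours, against 5.22 and 4.71 in controls, log2 change 1.49, limma adjusted p = 0.0269). Il6 lay under the lower quartile of every array (3.36, 3.28 and 3.62, against 3.12 and 3.80), so no level was shown in either group. Clcf1 (1.08), Lif (0.92) and Ctf1 (-0.54), all ligands of the interleukin-6 type, did not pass. The median of the cytokine list was 0.02.

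Among 16 receptors, kinases and feedback genes 2 rose and 2 fell, with a median of 0.12. Il1rap, the accessory chain without which the interleukin-1 receptor does not signal, was at 6.97, 6.50 and 7.06 in the tumours, against 10.19 and 10.29 in the controls, and fell by 3.40 (95% confidence interval -3.87 to -2.92, limma adjusted p = 0.00106). Lifr, the receptor for leukaemia inhibitory factor, was at 9.06, 8.23 and 7.24, against 10.83 and 11.16, and fell by 2.82. Osmr, the oncostatin M receptor, was at 8.13, 7.35 and 6.27, against 5.09 and 4.88, and rose by 2.26 (limma adjusted p = 0.0453); the call was lost with quantile normalisation repeated (0.0597), equal array medians (0.052) or a variance trend (0.0573). Tumour 1 was the nearest to the controls for Lifr and the farthest for Osmr. Tnfrsf1a, a receptor of tumour necrosis factor, rose by 0.78. The interleukin-6 receptor gene Il6ra (-0.70) and Il6st (0.15), named after their values were seen, did not pass.

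Of 16 transcription factor genes 2 rose and 3 fell, with a median of 0.09. Atf3, a stress-induced factor, rose by 3.10 and Nfkb2, a subunit of NF-kB, by 1.11, while Foxa1 fell by 1.12, Foxa2 by 0.98 and, named after its value was seen, the glucocorticoid receptor gene Nr3c1 by 0.72. Stat3 was at 9.69, 9.45 and 9.50 in tumours, against 9.20 and 9.29 in controls, and did not pass (0.30, limma adjusted p = 0.226). Cebpb was at 9.05, 8.76 and 8.81, against 9.16 and 8.72, and did not pass either (-0.06, limma adjusted p = 0.882).

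Other proteins that rise in an acute-phase response went both ways. Of 24 measured, 6 rose and 1 fell, with a median of 0.11. Lcn2, an iron-siderophore binding protein, was at 12.46, 11.93 and 12.58 in the tumours, against 6.68 and 7.03 in the controls, and rose by 5.47 (limma adjusted p = 0.000425). The metallothionein genes Mt2 and Mt1 rose by 3.86 and 2.52 (close relatives that may share probe signal), and Fgl1, a fibrinogen-like protein, by 1.64. Outside the rule for naming genes, Cd14 (3.54) and Vnn1 (2.48) rose and the complement component C9 fell by 2.86, the calls of Vnn1 and C9 being lost with a variance trend (limma adjusted p = 0.0646 and 0.0509) and that of Vnn1 also with the block (0.0752). The fibrinogen chains Fga (0.14), Fgb (-0.06) and Fgg (0.07), also named after their values were seen, did not pass. Of 15 proteins that normally decline in the response 1 rose and 2 fell, with a median of -0.26. Pon1, an esterase of high-density lipoprotein, was at 8.72, 5.00 and 3.93 in the tumours, against 11.91 and 12.07 in the controls, and fell by 6.11, and Ttr, transthyretin, fell by 0.71 (limma adjusted p = 0.0463). The Ttr call was lost with quantile normalisation repeated (0.0581) or the replicate block (0.0622), and that of Pon1 with a variance trend (0.0637). Serpina7, which encodes thyroxine-binding globulin, rose by 2.77. Alb was at 12.77, 12.75 and 12.36, against 12.65 and 12.85 (-0.12, limma adjusted p = 0.744), and Apoa2 (-0.45) did not pass.

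Partners of the 10 proteins were examined last. Of 13 genes of haemoglobin and haem clearance 3 rose and 2 fell, with a median of 0.32. Cd163, the macrophage receptor for the haptoglobin-haemoglobin complex, was at 4.45, 4.30 and 4.90 in the tumours, against 6.51 and 6.99 in the controls, and fell by 2.20 (limma adjusted p = 0.00563). Hmox1, which breaks down haem, rose by 1.81, the haem transporter gene Slc48a1 by 1.47 and the transferrin receptor gene Tfrc by 1.60, and Abcg2, outside the naming rule, fell by 1.29, a call lost with quantile normalisation repeated (limma adjusted p = 0.054). Of 12 pentraxin relatives and pentraxin receptors 7 rose and 0 fell, with a median of 1.87. They were the C1q chains C1qa (2.85), C1qb (3.34) and C1qc (3.33), the first component of complement that pentraxins engage, Fcer1g (2.85), and, outside the rule, the Fc receptor genes Fcgr1 (2.07), Fcgr3 (1.67) and Fcgr4 (3.59), all genes that macrophages express. Of 7 reported receptors of serum amyloid A 3 rose and 0 fell, with a median of 0.65: the fatty acid and lipoprotein receptor Cd36 by 1.89, Tlr4 by 1.48 and the ATP-gated channel gene P2rx7 by 0.75, while Selenos (-0.49) did not pass. Macrophage markers rose beside these lists in 6 of 12 cases, and the part of macrophage content in them was not tested. Of the 35 genes called in these lists, Il1rap and Lcn2 kept their call with each array left out in turn; 33 lost it without control 1, 32 without control 2, 5 without tumour 1, 9 without tumour 2 and 2 without tumour 3. Those lost without tumour 2 were Il1b, Lifr, Osmr, Nr3c1, Vnn1, Pon1, Ttr, P2rx7 and Cd36, those without tumour 1 Ttr, Abcg2, Fcgr3, Tlr4 and Cd36, and those without tumour 3 Vnn1 and Abcg2.

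**Figure D4:**
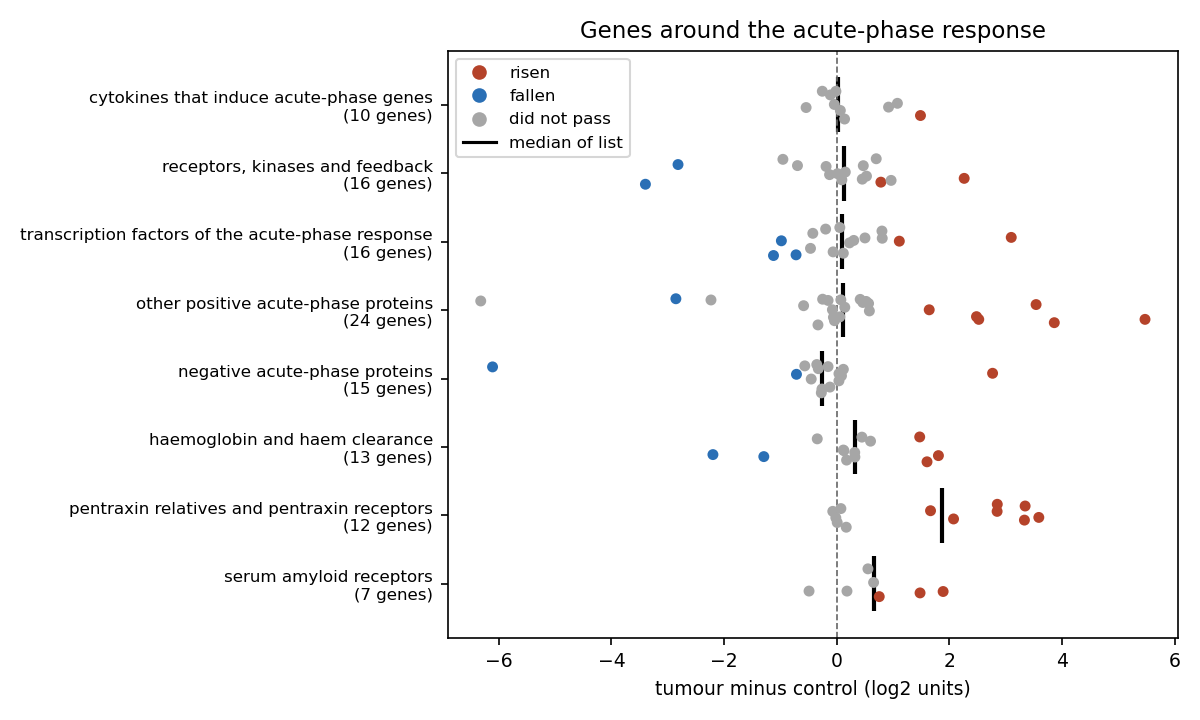
Tumour minus control difference in log2 units (horizontal axis) for the genes of 8 lists around the acute-phase response, 1 point per gene with vertical scatter for legibility; red points rose, blue points fell and grey points did not pass a limma adjusted p of 0.05, and black lines are list medians. The medians lie between -0.26 and 0.65 except for the pentraxin receptors at 1.87, and single genes range from Hamp at -6.32 to Lcn2 at 5.47.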

How the data were processed

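The authors deposited 1 table of log2 expression values per probe set and array. Per the submitters' processing notes, the software was GCOS and RMA, with no version or role given. RMA subtracts background, makes the arrays' distributions alike and combines the probes of a set. Differences of very dim and very bright probe sets on such arrays can come out too small. No genome build or probe set definition was found in the labels or the file.

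Of 28853 probe sets, 21789 with 1 symbol in the platform's annotation were used, the brightest per gene, leaving 19938 genes with no filter. Identifiers of 21698 were found in the GRCm38.p6 gene table, and 0 symbols needed an update. The group difference, tumours minus controls, came from limma 3.58.1 (lmFit, eBayes; R 4.3.3) on all 5 arrays (3 residual and 2.98 prior degrees of freedom), two-sided, adjusted by Benjamini-Hochberg over all genes with a threshold of 0.05. The number of arrays limits the precision; the labels call them biological replicates, and no batch is given. The fit was tested on simulated data.

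The members and lists were chosen with earlier results of these data known. Named were the members, Hdac3, up to 4 genes of smallest p per list, 8 fixed genes (Il6, Il1b, Stat3, Cebpb, Cd163, Hmox1, Alb, Ttr) and the 3 nearest patterns of Saa1, Saa3, Saa4 and Crp, gene models without a proper name left out; cell type markers are named from their lists, and the neighbouring genes, the motifs and other genes named were chosen after values were seen. The alternatives were 2 other normalisations, a filter dropping the 40% of genes with the lowest means, averaging over a gene's probe sets, a variance trend, array weights, a replicate block, an unmoderated test and leaving out each array. Python 3.11.15, pandas 2.3.3, Biopython 1.88 (alignments) and matplotlib 3.10.9 were used.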

Additional observations from a re-analysis of the deposited data

How the results depend on the processing

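The same 4 genes (Saa3, Saa4, Crp and Apcs) were called with quantile normalisation repeated, arrays shifted to a common median, the dimmest 40% of genes left out (which drops Saa1), probe sets averaged, a variance trend, array weights and the replicate block. The block gave 1 risen and 3 fallen members, 2376 genes and 41 list genes and changed no member's call. Ttr and Vnn1 lost theirs, and Clcf1, Mbl2 and Orm3 (limma adjusted p = 0.0325, 0.0424 and 0.0126) gained one. Cish, Jak1, Scarb1, Serping1 and Serpina6 of the lists also gained one (limma adjusted p = 0.0421, 0.0449, 0.0422, 0.0368 and 0.0499). So did the markers Alas2 and Pecam1 (limma adjusted p = 0.0396 and 0.0112). Other markers that gained a call were Pdgfrb, Cd3g, Cd8a, Col1a1, Krt19, Lyve1, Nkg7 and Cdh5 (limma adjusted p from 0.00438 to 0.045). The labels do not say that replicate numbers pair tumours with controls. Correlations of same-numbered deviations were 0.00 and -0.01. With 2 controls, whose deviations mirror each other, these cannot show whether samples were paired. The block is also limited by its 1 residual degree of freedom. No control has the number of tumour 3, so the changes in the block equal those without tumour 3, and it is no separate check on all 5 arrays. Array weights called 3252 genes. Among the list genes named, Clcf1, Ctf1, Lif, Selenos, Hamp, Cish, Jak1, Scarb1 and Serping1 were added. Selenos was also called with either other normalisation and Ctf1 with equal medians. The unmoderated test called 18 genes, 0 members up, 0 down and 0 list genes, although 6 members had an unadjusted p under 0.05 there. With each array left out in turn, 108 to 2719 genes were called, 0 to 1 members risen, 0 to 5 fallen and 2 to 42 list genes, the low ends without a control, where 4 or 5 members had an unadjusted p under 0.05. Among the pairs and the genes named by rule, values that changed sign were Saa1 minus Saa2, 0.24 without control 2 (-0.60 to 0.24 with each array left out); Saa1 minus Saa3, -0.22 without tumour 1 (-0.22 to 1.497); Alb, 0.0135 with the block and without tumour 3 (-0.22 to 0.0135); Clec4f, 0.14 in both (-1.99 to 0.14); Il6, 0.03 without tumour 2 and 0.30 without control 2 (-0.38 to 0.30); and Cebpb, 0.15 without control 1 (-0.28 to 0.15). Of other genes named, none of them called, Fga, Fgb, Fgg, Il6st, Lbp, Orm3, Vsig4, Cd5l, Marco, Timd4, Adipoq and Lep changed sign under at least 1 setting. Vsig4 changed most, to 1.14 without tumour 3. Without tumour 1 the change was -0.76 for Cd5l, -0.32 for Marco and -0.14 for Timd4. The causes were not tested. Signal near the lower quartile limits Saa1, Saa2 and Saa4 in tumours.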

Other observations

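Some further liver-secreted proteins split the tumours widely; they were chosen after their values were seen and none passed the test with all 5 arrays. Hamp, which encodes the iron hormone hepcidin and is induced by interleukin-6, was at 10.03, 4.13 and 4.37 in tumours 1, 2 and 3, against 12.48 and 12.50 in the controls (log2 change -6.32, limma adjusted p = 0.0809). Without tumour 1 its change was -8.25 (limma adjusted p = 0.000245), and with array weights the call was also made (0.0338). Tumour 1 was the least reduced for it, as it was for Saa4 and Crp. Mbl2, a mannose-binding lectin of the complement system, ordered the tumours otherwise, at 9.22, 6.25 and 10.84, against 10.99 and 11.02 in the controls, and was called with the replicate block only (limma adjusted p = 0.0424). Lbp, which carries bacterial lipopolysaccharide to Cd14, was at 10.27, 8.81 and 10.36, against 10.05 and 9.87, so that tumour 2 alone lay below the controls. Lrg1, another secreted acute-phase glycoprotein, was at 11.77, 10.83 and 10.51, against 10.42 and 10.49, with tumour 1 the highest, as for Saa1, Saa2 and Orm2.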
